A study of Mus musculus with 21 samples.

Results

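The 7 genes described here are Qk, Khdrbs1, Khdrbs3 and Sf1, which encode RNA-binding proteins of the STAR (signal transduction and activation of RNA) family or carry its RNA-binding domain, and Ybx1, Ybx3 and Carhsp1, which encode cold shock domain proteins. They are 7 of the 30519 genes in the count table, found by symbol, and were measured in 21 libraries of 2 cell types sorted from mouse bone marrow, hematopoietic stem cells (HSC) and progenitors of megakaryocytes and erythroid cells (MEP). The set was selected on measured values of these data, which were known when it was named after Qk and Ybx3. Their levels in the MEP double mutant are treated as the values used, so every comparison that contains that group is given as a description, with counts of calls and no p-value. For Etv6 the labels distinguish WT, P216L and S211I mice and mice with both changes (the double mutant); Etv6 encodes a repressor of the ETS family of DNA-binding factors. There were 3 libraries for HSC WT, HSC P216L, the HSC double mutant, MEP P216L and the MEP double mutant, and 2 for HSC S211I, MEP WT and MEP S211I. The labels name no promoter, Cre line, zygosity or age, and leave unstated if libraries were made from different animals; p-values then measure only the spread between these libraries, which may be technical.

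STAR proteins bind short single-stranded RNA elements and control splicing, stability and translation of the transcripts that hold them. Qk (quaking) is known for splicing control in glia, muscle and blood cells and for the formation of circular RNAs. Khdrbs1 and Khdrbs3 encode related splicing regulators, and Sf1 encodes splicing factor 1, which recognises the branch point of introns. Ybx1 and Ybx3 encode Y-box proteins that package messenger RNA and control its stability and translation, and Carhsp1 encodes a smaller cold shock domain protein that binds messenger RNA ends.

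The table gives estimated counts per gene, shown here as CPM, counts scaled to the same library total with no correction for gene length. Totals ran from 151216 to 2250654 counts in 10 of the 11 HSC libraries and from 3387389 to 12130358 in MEP. The library labelled HSC S211I replicate 2, with 13154016 counts, is shown apart: its profile correlated at r = 0.981 with the MEP mean, where MEP libraries reached 0.984 to 0.994 and the remaining HSC libraries 0.380 to 0.716. Its 20 HSC markers summed to 1225 CPM, against 2247 to 7406 in the other HSC libraries and 629 to 937 in MEP. Libraries of a group differed far more in HSC (biological coefficient of variation 1.60) than in MEP (0.174). No pair of libraries of a group agreed within sampling noise (chi-square per degree of freedom 4.79 to 92.6). The library shown apart enters the 1.60 and the 92.6, which is its pair with S211I replicate 1. The highest other pair gave 79.0.

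Qk and Ybx3 were both low in the MEP double mutant, so the sequence upstream of each is shown. The 250 bases before the annotated start are from RefSeq (GRCm38.p6, while the submitters' processing notes name GRCm39), 5′ to 3′ on the strand of the gene, with the ETS core GGAA on either strand (TTCC when it lies on the opposite strand) in capitals. Qk lies on the minus strand at chr17:10319362-10319611 for this window and Ybx3 on the minus strand at chr6:131388451-131388700.
Qk: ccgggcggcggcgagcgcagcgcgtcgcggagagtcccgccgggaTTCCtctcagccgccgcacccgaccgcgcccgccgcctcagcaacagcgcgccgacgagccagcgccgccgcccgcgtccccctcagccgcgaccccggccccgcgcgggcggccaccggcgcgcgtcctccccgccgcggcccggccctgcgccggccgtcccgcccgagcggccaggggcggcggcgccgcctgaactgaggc
Ybx3: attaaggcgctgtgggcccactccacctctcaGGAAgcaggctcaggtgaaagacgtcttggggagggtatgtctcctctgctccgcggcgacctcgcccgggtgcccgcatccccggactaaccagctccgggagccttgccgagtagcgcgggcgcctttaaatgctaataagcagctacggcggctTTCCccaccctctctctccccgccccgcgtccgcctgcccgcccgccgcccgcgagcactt
The Qk window holds 1 GGAA core and the Ybx3 window 2. Such a core occurs in 93.4% of the 32851 RefSeq promoter windows of 250 bases. The longer ETS words GGAAGT and CCGGAAGT, searched on both strands in 300 bases and overlapping the core, were in 0 of the 5 member promoters that the table held (Qk, Ybx3, Ybx1, Carhsp1 and Sf1), against 23.8% and 3.89% of all promoters. Ybx3 lies on chromosome 6, as Etv6 does, with 69 annotated entries between them, 38 of them protein coding. Of these, 1 passed the filter on low counts in MEP, Smim10l1; its log2 difference between the double mutant and WT was 0.12 ± 0.17 (SE), and that of Etv6 was 0.26 ± 0.24.

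In MEP carrying both Etv6 changes, Qk, Khdrbs3 and Ybx3 lay below every other MEP library and Ybx1 lay above every one in CPM, an order that scaling library sizes by trimmed means of log ratios (TMM) ended for Ybx1 and for none of the other 3. Khdrbs1, Sf1 and Carhsp1 overlapped the other genotypes. Among the 10773 genes tested in MEP, 0.928% lay wholly below and 1.24% wholly above the other MEP libraries in this way; since the set was chosen with these values known, nothing is read from the members' share.

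Qk stood at 65.8, 64.4 and 62.9 CPM in the 3 MEP double-mutant libraries (316, 558 and 465 counts). It stood at 120 and 133 CPM in MEP WT, 157, 151 and 101 in P216L, and 182 and 173 in S211I. The double mutants were within a few CPM of each other, and the nearest library of another genotype was a P216L library. On edgeR's log2 scale the double mutant was lower by 0.99 ± 0.16 (SE) than WT, a fold of 0.503. The log2 difference was -1.08 ± 0.15 against P216L and -1.44 ± 0.16 against S211I.

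Khdrbs3, a relative of Qk best known from brain and testis, was sparse in every group. It stood at 3.54, 5.31 and 10.6 CPM in the MEP double mutant (17, 46 and 78 counts). It stood at 25.6 and 34.1 CPM in WT, 47.9, 24.3 and 20.4 in P216L, and 26.9 and 46.1 in S211I. The highest double-mutant library was still below the lowest of the other 7. The log2 difference of the double mutant was -2.19 ± 0.41 against WT, -2.23 ± 0.38 against P216L and -2.43 ± 0.41 against S211I.

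Ybx3, the Y-box protein gene, stood at 966, 740 and 792 CPM in the MEP double mutant. The other 7 MEP libraries lay in a narrow band of 1430 to 1612 CPM, with 1547 and 1498 in WT, 1612, 1500 and 1430 in P216L, and 1515 and 1488 in S211I. The 3 genotypes outside the double mutant could not be separated by level, while the double mutant stood clear of all of them. The log2 difference was -0.89 ± 0.11 against WT, -0.86 ± 0.10 against P216L and -0.83 ± 0.11 against S211I, so that the fold was close to the same against each, 0.541, 0.552 and 0.563.

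Ybx1, its paralog, was at 1335, 1402 and 1312 CPM in the MEP double mutant and at 1117 to 1298 CPM in the other 7 libraries. The gap was small: the nearest WT library, at 1298 CPM, lay just under the lowest double mutant. On TMM-scaled library sizes the groups overlapped, with that WT library at 1543 CPM and the lowest double mutant at 1540. The log2 difference was 0.15 ± 0.11 against WT, 0.17 ± 0.10 against P216L and 0.24 ± 0.11 against S211I, and none was called. In unscaled CPM the 2 paralogs lay on opposite sides of the other genotypes.

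**Figure D1:**
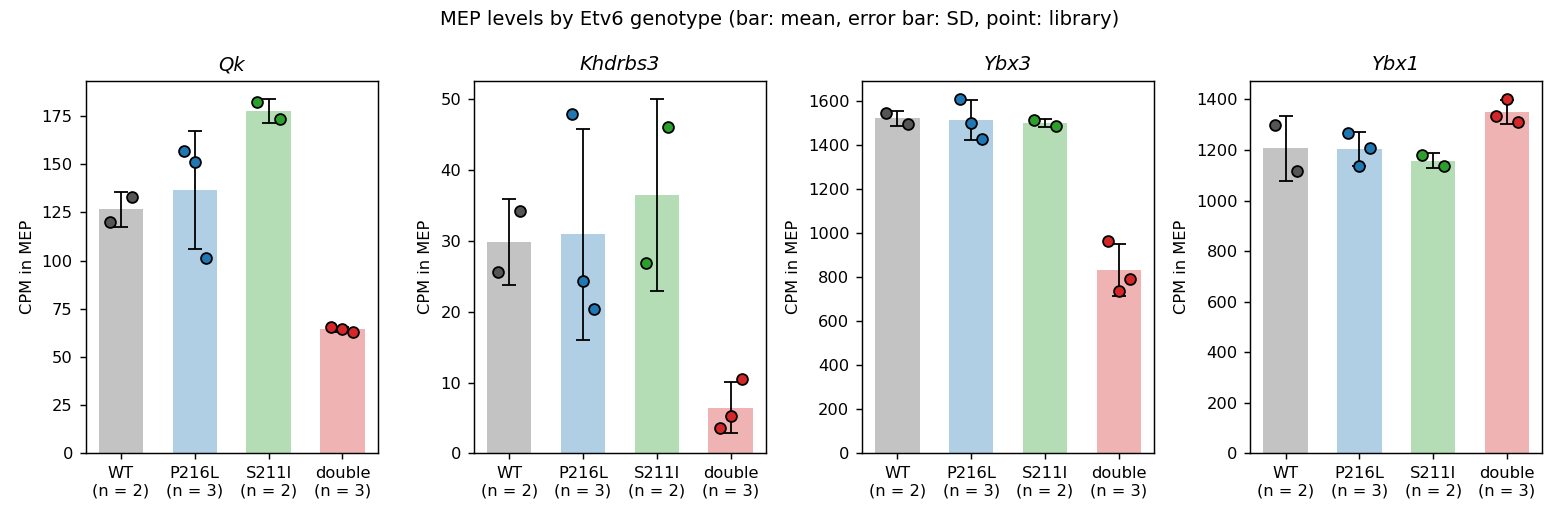
CPM of Qk, Khdrbs3, Ybx3 and Ybx1 in MEP by Etv6 genotype, with bars for the mean, error bars for the SD and points for libraries (n = 2 or 3). The double-mutant points lie below all others for Qk (62.9 to 65.8 CPM), Khdrbs3 (3.54 to 10.6) and Ybx3 (740 to 966), and above all others for Ybx1 (1312 to 1402), where TMM scaling gives an overlap with WT.

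The remaining members gave overlapping values. Khdrbs1, whose protein couples signalling to splicing, lay at 185 to 198 CPM in the MEP double mutant and at 162 to 217 CPM elsewhere in MEP, with a log2 difference of 0.05 ± 0.14 against WT, 0.05 ± 0.13 against P216L and 0.03 ± 0.14 against S211I. Sf1 lay at 247 to 272 CPM against 171 to 283, with 0.01 ± 0.15, 0.23 ± 0.13 and 0.05 ± 0.15 in the same order. Carhsp1 lay at 76.9 to 110 CPM against 91.8 to 151, with -0.29 ± 0.18, -0.13 ± 0.16 and -0.47 ± 0.18. The sign changed under some alternatives for Khdrbs1 against each single mutant, Sf1 against WT and Carhsp1 against P216L. Against WT, the 95% intervals ran from -0.22 to 0.32 for Khdrbs1, -0.29 to 0.30 for Sf1 and -0.64 to 0.05 for Carhsp1. Changes within those intervals are not excluded, and the intervals are not limits of detection. Carhsp1 overlaps Pmm2 on the opposite strand, and Sf1 overlaps the antisense gene Gm14966; whether counting used strand is not given in the sources used here.

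By edgeR's call at an adjusted p of 0.05 over all genes, 2 of the 7 members differed between the MEP double mutant and WT (Qk and Ybx3), where 0.102% of all genes were called. The counts were 3 of 7 against P216L and 3 of 7 against S211I (Qk, Khdrbs3 and Ybx3 in both), where 0.111% and 0.139% of genes were called. All of these were lower. The median log2 difference of the 7 against WT was -0.29, beside 0.01 over all genes tested. The 3 comparisons share the double-mutant libraries, and the members were chosen with these values known, so the counts are a description.

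In the same 3 comparisons, Qk kept its call in 12 of 12 alternatives against P216L, 11 of 11 against S211I and 9 of 11 against WT, and Ybx3 in 12 of 12, 10 of 11 and 11 of 11. The call of Qk against WT was lost without double-mutant replicate 2 (log2 difference -0.99) or without WT replicate 3 (-0.93), and that of Ybx3 against S211I without S211I replicate 1 (-0.81). Khdrbs3 lost its call against P216L without double-mutant replicate 1 or 2 or P216L replicate 1 or 2 (-1.76 to -2.40), and against S211I without double-mutant replicate 1 or 2 or S211I replicate 1 or 2 (-2.01 to -2.76); against WT it gained one in 5 of 11 alternatives, with DESeq2 (-2.21), no low-count filter (-2.20), only the groups compared (-2.19), voom (-2.52) and without double-mutant replicate 3 (-2.74). In the same libraries the 22 erythroid and MEP markers, all detected, summed to 23738 to 25424 CPM in the double mutant and 25422 to 28341 CPM in the other MEP libraries. The lymphoid markers summed to 17.1 to 21.1 CPM against 22.1 to 50.6, with 8 to 10 of 12 detected in the double mutant. The megakaryocyte markers summed to 19.3 to 26.3 CPM against 25.5 to 42.1. The neutrophil and monocyte markers, 11 or 12 of 12 detected, summed to 39.4 to 80.1 CPM in the double mutant, above the 5.88 to 24.6 CPM of WT and within the 36.0 to 182 CPM of the single mutants. The endothelial and stromal markers summed to 5.68 to 7.91 CPM, below the 10.03 to 21.2 CPM of WT. They overlapped the 7.09 to 18.4 CPM of P216L and lay below the 10.01 to 10.5 CPM of S211I. The part of these lists in the member values was not tested; in such bulk samples fewer cells of a type and less RNA per cell cannot be told apart.

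**Figure D2:**
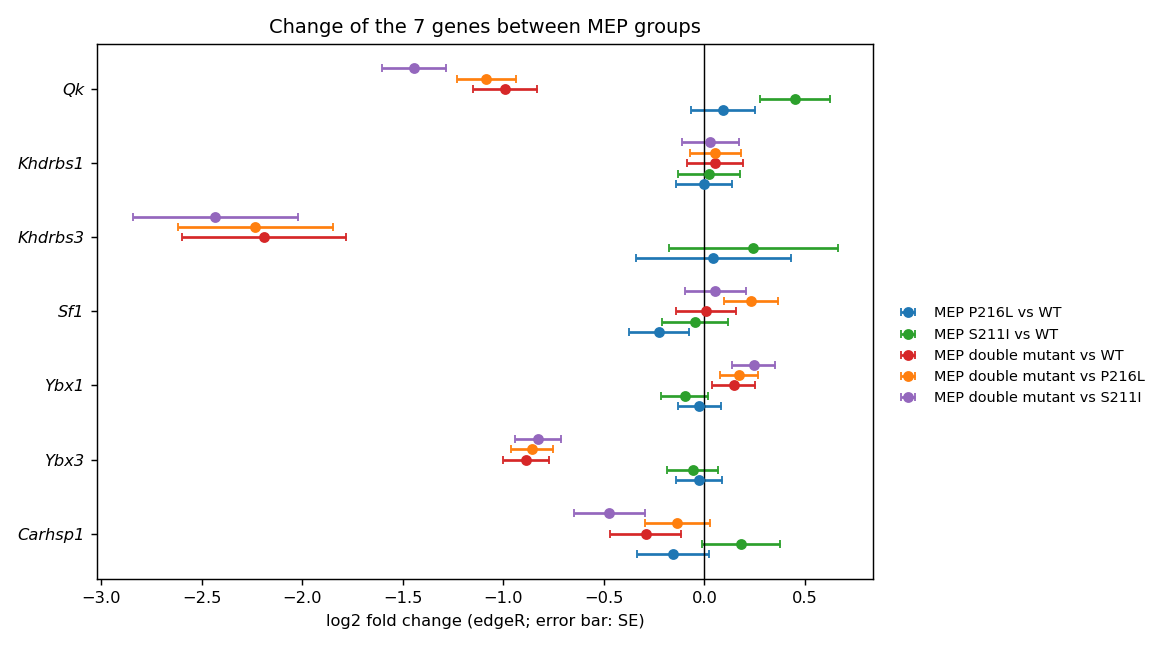
Log2 fold change (edgeR; error bar: SE) of each of the 7 genes between MEP groups, with 5 comparisons per gene. Qk, Khdrbs3 and Ybx3 lie left of 0 in the 3 comparisons with the double mutant, and the single-mutant points lie between -0.22 (Sf1 in P216L) and 0.45 (Qk in S211I).

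Neither single change moved a member past the threshold in MEP. Under P216L against WT, edgeR called 0 of 7 members and 0% of all genes. Its unadjusted p was under 0.05 for 0 members, beside 552 of 10773 genes. The log2 differences were 0.09 ± 0.16 for Qk, 0.04 ± 0.38 for Khdrbs3, -0.03 ± 0.11 for Ybx3, -0.0033 ± 0.14 for Khdrbs1, -0.22 ± 0.15 for Sf1, -0.03 ± 0.11 for Ybx1 and -0.16 ± 0.18 for Carhsp1. The 95% interval was narrowest for Ybx1, at -0.24 to 0.18, and widest for Khdrbs3, at -0.71 to 0.80; that of Ybx3 ran from -0.25 to 0.20. The signs of the Qk, Khdrbs1, Khdrbs3, Ybx1 and Ybx3 differences changed under some alternatives.

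Under S211I against WT in MEP, edgeR again called 0 of 7 members and 0% of all genes. Qk was the only member with an unadjusted p under 0.05, beside 511 of 10773 genes. Its 2 S211I libraries, at 182 and 173 CPM, lay above the WT libraries at 120 and 133. The share of all genes separated like this was not counted. The log2 difference of Qk was 0.45 ± 0.17. The unadjusted p of Qk in edgeR's quasi-likelihood fit was 0.0171 and its adjusted p 0.939, so the difference fails correction over all genes. Its direction is opposite to that of the double mutant. Khdrbs3 differed by 0.24 ± 0.42, Ybx3 by -0.06 ± 0.13, Ybx1 by -0.10 ± 0.12, Khdrbs1 by 0.02 ± 0.15, Sf1 by -0.05 ± 0.16 and Carhsp1 by 0.18 ± 0.19; the sign changed under some alternatives for Khdrbs1, Khdrbs3, Ybx1 and Carhsp1.

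If the 2 single-mutant changes simply added on the log2 scale, the double mutant would equal their sum; Qk lay at -1.54 ± 0.23 relative to that sum. The same difference was -0.80 ± 0.16 for Ybx3 and -2.48 ± 0.57 for Khdrbs3. Qk alone was called, 1 of 7 members beside 0.00928% of all genes. Averaged over genotypes, MEP carrying P216L lay below MEP without it by -0.67 ± 0.11 for Qk. Qk was the only one of the 7 called, beside 0.0186% of genes. For carriage of S211I, 0 of 7 were called, beside 0.00928%. All of these comparisons contain the double-mutant libraries and are a description; the call of Qk against the sum was lost in 7 of 15 alternatives and that over P216L carriage in 8 of 15.

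In HSC the members varied widely between libraries of a group. Qk stood at 198, 607 and 252 CPM in WT (30, 249 and 121 counts). It stood at 0, 162 and 151 CPM in P216L, 4.52 in S211I replicate 1, and 174, 241 and 94.2 in the double mutant. The 0 came from P216L replicate 1, which held 406024 counts and 3988 detected genes. By counting noise alone 0 counts allow up to 7.39 CPM there, the CPM of 3 counts. HSC libraries differed by far more than counting noise, so this is not an upper limit on the level. In that library the 12 endothelial and stromal markers summed to 12819 CPM, with 2 detected. The library labelled HSC S211I replicate 2, shown apart, had 112 CPM. HSC double-mutant Qk overlapped WT and did not show the tight low level of MEP double mutants.

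Ybx3 in HSC stood at 238, 370 and 664 CPM in WT and at 983, 709 and 1272 in P216L. It stood at 443 in S211I replicate 1 and at 805, 273 and 1119 in the double mutant, with 1423 in the library labelled S211I replicate 2, just under the 1430 to 1612 CPM of the MEP libraries outside the double mutant. All P216L libraries were above all WT libraries, while the double mutant overlapped WT. The share of all genes separated in this way in HSC was not counted, so nothing is read from the gap. In P216L replicate 3, at 1272 CPM, the erythroid and MEP markers summed to 30842 CPM, above the 28341 of the highest MEP library. In P216L replicate 1, at 983 CPM, the endothelial and stromal markers summed to 12819 CPM. The part of these markers in the Ybx3 values was not tested. Ybx1 followed the same order in WT, at 159, 280 and 539 CPM. It stood at 1155, 793 and 473 CPM in P216L, 819 in S211I replicate 1 and 1007, 679 and 1029 in the double mutant, with 1304 in the library labelled S211I replicate 2. Every double-mutant library was above every WT library for Ybx1, again with no count over all genes. P216L overlapped WT in CPM (lowest 473 against a highest WT of 539), but lay above it with TMM scaling (lowest 491 against 472).

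No HSC comparison gave a call for a member, by edgeR, DESeq2 or voom. For P216L against WT, edgeR called 0 of 7 members, beside 0.106% of 9471 genes. Its unadjusted p was under 0.05 for 2 members and for 1223 of the 9471 genes. The log2 difference was 1.30 ± 0.66 for Ybx1 (edgeR adjusted p = 0.387), 1.31 ± 0.66 for Ybx3 (adjusted p = 0.379) and -1.48 ± 1.53 for Qk. The median over all genes was 0.13.

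For the double mutant against WT in HSC, edgeR called 0 of 7 members beside 0.0739% of genes. Its unadjusted p was under 0.05 for 1 member and for 997 of 9471 genes. The log2 difference was 1.67 ± 0.67 for Ybx1 (edgeR adjusted p = 0.468), 1.03 ± 0.65 for Ybx3 and -0.83 ± 1.51 for Qk, beside a median of 0.44 over all genes. The Qk interval ran from -3.78 to 2.13, which holds the MEP value of -0.99, so a change of that size in HSC was not excluded. The 22 erythroid and MEP markers were, like the group means of Ybx1 and Ybx3, higher in these mutants than in WT. They summed to 3773 to 7489 CPM in HSC WT, 9510 to 30842 in HSC P216L and 9427 to 17389 in the HSC double mutant. The order of libraries differed for Ybx1. In P216L replicate 3 the markers summed to 30842 CPM with Ybx1 at 473, and in P216L replicate 1 to 11938 with Ybx1 at 1155. The 20 HSC markers moved the other way, from 6058 to 7406 CPM in HSC WT to 2247 to 4487 in P216L and 2354 to 5086 in the double mutant. The megakaryocyte markers summed to 383 to 589 CPM in HSC WT, 24.6 to 170 in P216L and 0 to 272 in the double mutant. The part of these lists in the result was not tested.

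For S211I against WT in HSC, edgeR called 0 of 7 members beside 0.0845% of genes. Its unadjusted p was under 0.05 for 2 members and for 772 of 9471 genes. The median log2 difference over all genes was 0.43. The log2 difference was 1.95 ± 0.73 for Ybx1 (edgeR adjusted p = 0.536), 1.45 ± 0.71 for Ybx3 (adjusted p = 0.599) and -2.15 ± 1.82 for Qk. Without the library labelled S211I replicate 2 these became 1.34, 0.09 and -6.15, each resting on 1 library. Against P216L the double mutant gave 0 of 7 calls beside 0.0211% of genes, with Qk at 0.65 ± 1.51 and Ybx3 at -0.28 ± 0.65, whose sign changed when double-mutant replicate 2 or P216L replicate 3 was left out. Against S211I it gave 0 of 7 beside 0.0106%. In either, 0 of the 7 had an unadjusted p under 0.05, beside 660 (against P216L) and 193 (against S211I) of 9471 genes.

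Khdrbs3 was detected in 7 of the 10 HSC libraries, from 0 to 115 CPM. It had 0 counts in P216L replicates 1 and 3 and in double-mutant replicate 2. By counting noise alone these 0 counts allow up to 7.39, 3.53 and 8.12 CPM. In WT Khdrbs3 stood at 46.3, 51.2 and 33.3 CPM, all above MEP double mutants. Khdrbs1 ranged from 0 to 156 CPM and Carhsp1 from 0 to 439.9 CPM, each with 1 library at 0, and Sf1 from 24.98 to 360.0 CPM. None of the 4 separated a mutant group from WT by a call.

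**Figure D3:**
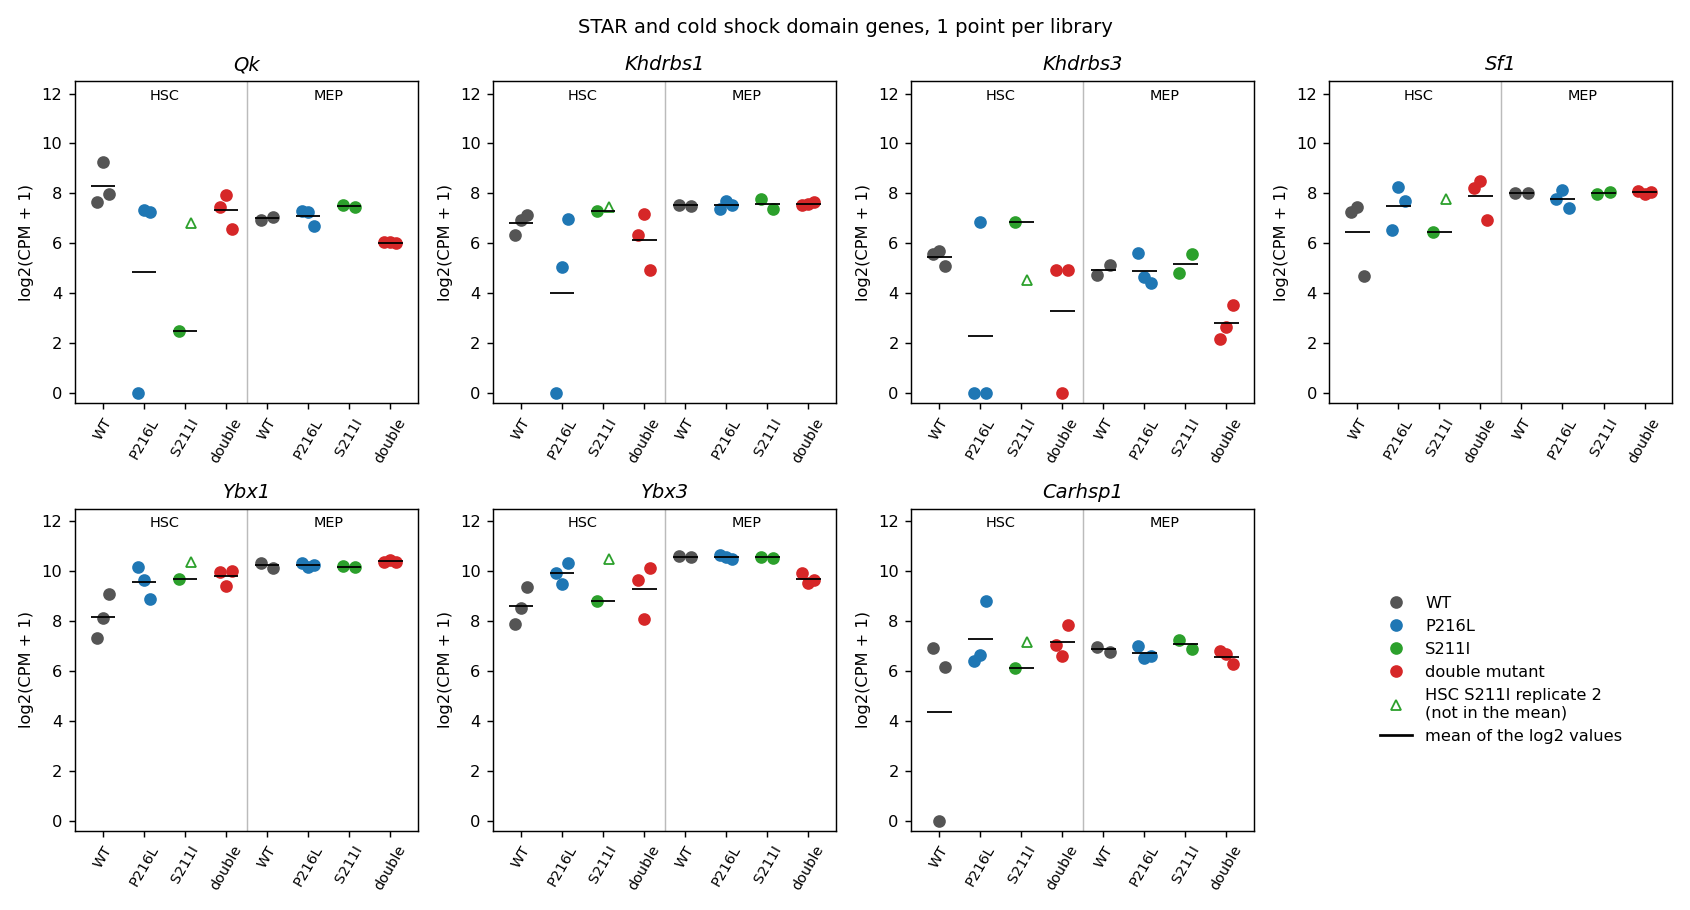
Log2(CPM + 1) of the 7 genes, 1 point per library, by cell type and Etv6 genotype; horizontal lines are means of the log2 values and the open triangle is the library labelled HSC S211I replicate 2, left out of the mean. HSC points spread over several log2 units while MEP points lie close together, with the double-mutant MEP points low for Qk, Khdrbs3 and Ybx3.

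Ybx1 and Ybx3 were higher in WT MEP than in WT HSC, and the other 5 members were not called. Ybx1 stood at 1298 and 1117 CPM in MEP WT against 159 to 539 in HSC WT, a log2 difference of 2.45 ± 0.54 (edgeR adjusted p = 0.0107). Ybx3 stood at 1547 and 1498 CPM against 238 to 664, a log2 difference of 2.42 ± 0.62 (edgeR adjusted p = 0.0276). Both genes had every MEP WT library above every HSC WT library. The share of all genes with a gap between these groups, in either direction, was not counted. The other differences were -0.83 ± 1.31 for Qk, 1.30 ± 1.16 for Khdrbs1, 0.14 ± 1.78 for Khdrbs3, 1.91 ± 0.89 for Sf1 and 1.63 ± 1.23 for Carhsp1, and the sign for Khdrbs3 changed under some alternatives.

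In this comparison 4.1% of 12036 genes were called and the median log2 difference over all genes was 0.90, against which the member differences are to be read. The median of the 7 members was 1.63. Both calls depended on the fit: Ybx1 was lost in 3 of 12 alternatives (largest adjusted p 0.141) and Ybx3 in 8 of 12 (largest 0.129), including without MEP WT replicate 1 for both. Qk in MEP WT, at 120 and 133 CPM, lay below all HSC WT libraries in CPM and overlapped them with TMM scaling (143 and 155 against a lowest HSC WT of 117), and its spread in HSC left the interval at -3.39 to 1.74. In P216L, MEP against HSC gave 0 of 7 calls beside 0.0748% of genes. Ybx1 was the only member under an unadjusted p of 0.05 by edgeR, beside 2372 of 12036 genes. In the double mutant, MEP against HSC gave 0 of 7 beside 0.241%.

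The order of levels across cell types and genotypes differed between the 2 genes the set is named for. By group mean, Qk ran from 64.4 ± 1.41 CPM (SD, n = 3) in the MEP double mutant through 104 ± 90.5 in HSC P216L, 127 ± 9.18 in MEP WT (n = 2), 136 ± 30.6 in MEP P216L, 170 ± 73.5 in the HSC double mutant and 178 ± 6.21 in MEP S211I (n = 2) to 352 ± 222 in HSC WT. Among the MEP groups the double mutant lay clear below and S211I clear above the rest, while WT and P216L overlapped; HSC P216L and the HSC double mutant overlapped their neighbours in this order, and the lowest HSC WT library, at 198 CPM, lay above MEP S211I, whose highest was 182, an order that TMM scaling ended (117 against 210). HSC S211I, with 1 library besides the one shown apart, was left out of it. Gaps between groups in this order were not counted over all genes. Ybx3 ran from 424 ± 218 CPM in HSC WT through 732 ± 427 in the HSC double mutant, 833 ± 119 in the MEP double mutant and 988 ± 281 in HSC P216L to 1501 ± 18.98 in MEP S211I, 1514 ± 91.5 in MEP P216L and 1523 ± 34.7 in MEP WT. The 3 highest groups did not differ beyond their spread, and the MEP double mutant lay among the HSC groups.

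The change in the double mutant was set against its change in HSC in 1 fit of all libraries. The difference of the 2 effects (MEP minus HSC, log2) was -0.30 ± 1.71 for Qk, -2.07 ± 0.83 for Ybx3 and -1.67 ± 0.71 for Ybx1. It was -1.63 ± 2.38 for Khdrbs3 and -2.12 ± 1.66 for Carhsp1. EdgeR called 0 of 7 members, beside 0.0166% of genes. The median over all genes was -0.66, and the sign for Qk changed under some alternatives. For P216L the count of calls was 0 of 7 beside 0.0997%, and for S211I 0 of 7 beside 0%. An unadjusted p under 0.05 was given by edgeR to 0 and 1 (Ybx1), beside 1948 and 1281 of 12036 genes. That Qk was called low in MEP and not in HSC is therefore not shown to be a difference between the cell types.

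A further 5 STAR and cold shock domain genes had a median of 0 CPM in HSC. Khdrbs2, Ybx2, Csdc2, Lin28a and Lin28b were each at 0 in 8 to 10 of the 10 HSC libraries and reached at most 0.812 CPM in MEP; the highest HSC value was 38.5 CPM, for Csdc2.

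No other RNA-binding gene of the lists was called in the mutants, where few genes were called at all. Over all genes the share called was 0 to 0.139% in the MEP comparisons and 0.0106 to 0.106% in the HSC ones. For lists of this size, 0 calls is near that share. Of 37 splicing regulators tested in MEP and 38 in HSC, 18 genes of branch point and 3′ splice site recognition and 36 genes of messenger RNA stability and translation, edgeR called 0 in any comparison of mutants, in MEP or HSC. For the MEP double mutant against WT their median log2 differences were 0.05, -0.01 and -0.14, beside 0.01 over all genes. The 18 genes of branch point and 3′ splice site recognition, among them Sf3b1 and U2af2, lay between -0.18 and 0.26.

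**Figure D4:**
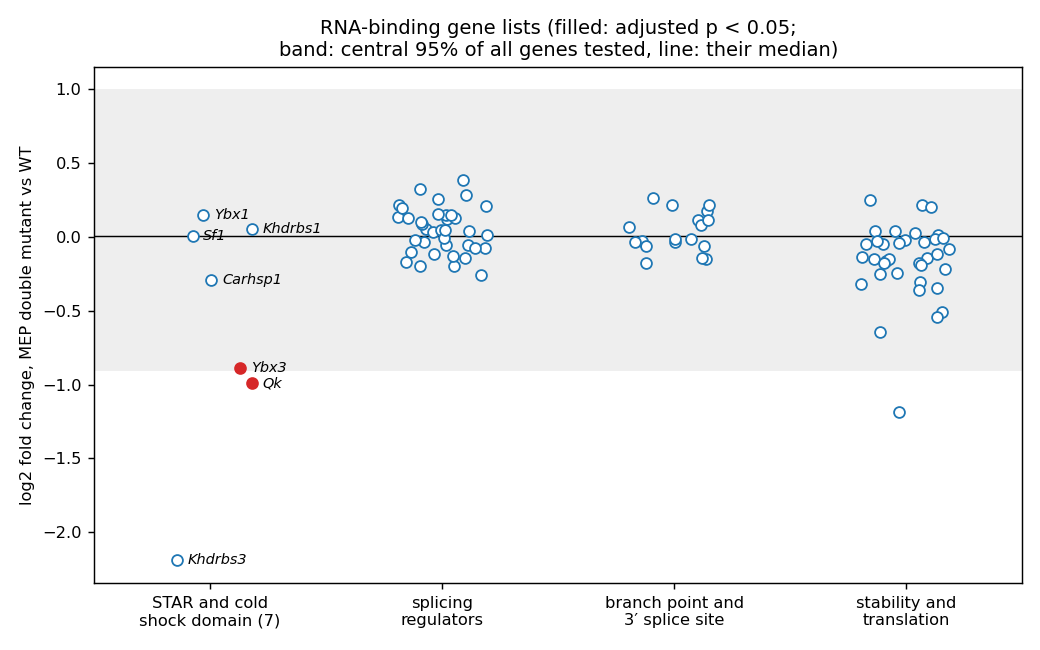
Log2 fold change in the MEP double mutant against WT for the 7 genes and 3 lists of RNA-binding genes, 1 point per gene; red points passed an adjusted p of 0.05, the band covers the central 95% of 10773 genes and the line is their median. Qk (-0.99) and Khdrbs3 (-2.19) lie below the band, Ybx3 (-0.89) just inside its lower edge of -0.90, and no gene of the other lists is red. One of those also lies below the band, Zfp36 at -1.18 ± 1.35 (SE).

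Between cell types in WT, 4 of 39 splicing regulators, 1 of 18 branch point genes and 2 of 37 stability and translation genes were higher in MEP, and none was lower. These are 10.3%, 5.56% and 5.41% of the lists, beside 4.1% of all genes called in either direction. Over 12 alternatives the counts ran from 0 to 10, 0 to 4 and 0 to 6, so the calls depended on the fit. Hnrnpab, Hnrnpc and Hnrnpu, which encode nuclear ribonucleoproteins that bind new transcripts, were higher by 3.59 ± 0.67, 2.83 ± 0.59 and 2.09 ± 0.60 on the log2 scale (edgeR adjusted p = 0.00339, 0.00865 and 0.0439). Sf3b4, a subunit of the branch point complex, was higher by 2.77 ± 0.73 (edgeR adjusted p = 0.0316), and Serbp1, which binds messenger RNA on ribosomes, by 2.79 ± 0.57 (edgeR adjusted p = 0.00715). Tra2a and Fxr2 were also called. Both were at 0 counts in the 3 HSC WT libraries, where 0 counts allow up to 6.24 to 19.8 CPM by counting noise alone. Tra2a stood at 33.4 and 38.9 CPM and Fxr2 at 66.0 and 82.0 CPM in MEP WT. Mutant HSC did not share the 0 counts. Tra2a averaged 54.0 ± 23.7 CPM (SD, n = 3) in HSC P216L and 16.2 ± 14.1 in the HSC double mutant. Fxr2 averaged 204 ± 256 and 157 ± 59.4 in the same groups, so neither call describes HSC as a whole.

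The genes whose profile was most like that of Qk over the 20 libraries, by Pearson's r of log2(CPM + 1) among 12036 genes, were Mybbp1a (r = 0.939), Gabpb1 (0.937), Eri3 (0.934), Kdm5a (0.934) and Zfp740 (0.929). For Ybx3 they were Mdh2 (0.869), Car2 (0.864), Mrpl20 (0.863), Creb1 (0.855) and Nup85 (0.854). These values rest mostly on the HSC libraries, which share low depth: in HSC alone r was 0.949 to 0.980 for the first 5 and 0.794 to 0.873 for the second. Within the 10 MEP libraries r ran from -0.39 (Eri3) to 0.48 (Zfp740) for Qk and from -0.22 (Mrpl20) to 0.64 (Car2) for Ybx3.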

How the data were processed

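RNA was extracted with NucleoSpin RNA XS and low-input libraries were made with SMART-Seq v4, per the labels' protocols. The authors deposited 1 table of estimated counts by Entrez gene. The submitters' processing notes name FastQC, Salmon and GRCm39, with each version not given in the sources used here. In each library 6.09 to 33.1% of nonzero values are not whole. The estimated counts were rounded for the tests. Symbols came from RefSeq (GRCm38.p6; 30211 of 30519 genes matched). All columns were used (0 left out). Titles gave groups and replicate numbers; the genotype field writes the first letter of the S211I change differently from the titles, whose form is used.

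HSC (11 libraries), MEP (10) and all 21 each had their own fit in edgeR 4.0.16 under R 4.3.3: TMM size factors, filterByExpr (minimum count 10, minimum total 15), robust quasi-likelihood fits, Benjamini-Hochberg adjustment over all genes of each of 19 contrasts at 0.05. SE is the absolute log2 fold change over the square root of F, and 95% intervals are 1.96 SE. A pseudocount of 1 served for plots and correlations only. All 7 members passed the filter in each fit. The fits were tested on simulated data.

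The members, gene lists and comparisons were chosen with earlier results of these data known. Named genes are the 7 members, their relatives (1 item is not reported here), up to 5 called genes per direction of each RNA-binding list and the 5 genes most like Qk and Ybx3. Alternatives were DESeq2 1.42.0, voom with quality weights (limma 3.58.1), RLE scaling, no filter on low counts, a block for replicate number, a fit of the compared groups alone, and leaving out single libraries. They were computed for 7 members in 19 contrasts; which fold changes to print (65 of 133) was settled after these alternatives had been seen, and fold changes that often changed sign were among those left out. Within a cell type, deviations of same-numbered libraries of different genotypes had r -0.09 to 0.03 in MEP and -0.07 to 0.25 in HSC. Differently numbered ones had r -0.09 to 0.09 and -0.25 to 0.23. In groups of 2 libraries the deviations are mirror images, which ties these r values to each other. Same-numbered HSC and MEP libraries were not compared, so pairing between the cell types was not tested. GGAA was counted in promoters beside the 2 planned words. Protein sequences and the promoters of Khdrbs1 and Khdrbs3 were not used here.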

Additional observations from a re-analysis of the deposited data

Results flagged for a closer look

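In MEP, Qk in the double mutant was at -1.54 on the log2 scale relative to the sum of the 2 single-mutant changes; S211I alone lay above WT and the double mutant below it. The difference was called by edgeR and is a description, since Qk was chosen with these values known, and the call was lost in 7 of 15 alternatives.

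A further 4 results had every library of 1 cell type on the other side of the WT mean from those of the other cell type. How often this held over all genes was not counted. The change under S211I in MEP minus that in HSC was 2.42 (log2) for Qk, -2.17 for Ybx1 and -1.64 for Ybx3. The median over all genes was -0.75. The edgeR adjusted p values for the 3 genes were 0.697, 0.386 and 0.51. Each rests on 2 HSC libraries of which 1 resembles MEP. Without the MEP-like library the differences were 6.71, -1.31 and -0.03. Ybx3 in MEP S211I, at 1515 and 1488 CPM, was close to WT at 1547 and 1498. HSC S211I replicate 1, at 443 CPM, lay within HSC WT at 238 to 664. The double-mutant change of Carhsp1 in MEP minus that in HSC was -2.12, with 1 HSC WT library at 0, and did not pass either.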

How the results depend on the processing

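Of the 133 member results (7 genes in 19 comparisons), 42 changed sign and 15 changed call under at least 1 alternative. Of the 65 whose fold change is printed, 16 changed sign; of the 68 not printed, 26 did, among them Khdrbs3 in HSC P216L against WT, in 10 of 13 alternatives. The choice of what to print was made after these outcomes were seen, so the printed values look steadier than the full set. The cause of each change below was not tested.

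The number of members called stayed at 0 in every alternative for the 5 HSC comparisons, the single mutants against WT in MEP, MEP against HSC in P216L and in the double mutant, and the 3 differences of effects. For P216L carriage in MEP it was 2 with DESeq2, 3 with no filter, 3 with voom, and 0 to 1 when a library was left out. For S211I carriage it was 1, 2 and 1, and 0 to 1. For the double mutant against the sum of single changes it was 2, 3 and 3, and 0 to 2. For MEP against HSC in WT it was 0 with no filter, 0 with only the groups compared, 1 with RLE, 1 with voom and 0 to 2 when a library was left out. Leaving out a library gave 1 to 3 for the double mutant against WT and 1 to 3 against S211I.

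With replicate number as a block, 0 members were called for P216L carriage and 0 against the sum of single changes. These numbers are not known to pair the libraries. Under the replicate block the P216L difference in MEP was 0.015 for Khdrbs1 and 0.002 for Ybx3, the double-mutant difference of Sf1 was -0.050, and Khdrbs3 lost its calls against P216L and S211I. With voom, the P216L difference was 0.035 for Ybx1 and 0.0185 for Ybx3, and the double-mutant difference of Sf1 was -0.0001. Khdrbs3 in MEP against HSC in WT was -0.61 with DESeq2, -0.61 with RLE and -0.070 with only the groups compared. The Qk difference of double-mutant effects was 0.091 with DESeq2 and 0.092 with RLE. In MEP alone, r was -0.39 for Eri3 with Qk and -0.22 for Mrpl20 with Ybx3.

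Leaving out 1 library at a time gave, for P216L against WT in MEP, -0.018 to 0.26 for Qk, -0.084 to 0.078 for Khdrbs1, -0.43 to 0.26 for Khdrbs3, -0.14 to 0.10 for Ybx1 and -0.074 to 0.0056 for Ybx3. For S211I against WT it gave -0.21 to 0.22 for Khdrbs1, -0.18 to 0.57 for Khdrbs3, -0.22 to 0.025 for Ybx1 and -0.017 to 0.36 for Carhsp1. For the MEP double mutant it gave -0.017 to 0.047 for Sf1 against WT, -0.0285 to 0.13 for Khdrbs1 and -0.24 to 0.032 for Carhsp1 against P216L, and -0.17 to 0.26 for Khdrbs1 against S211I. It gave -0.75 to 0.17 for Ybx3 in the HSC double mutant against P216L and -0.95 to 0.050 for the Qk difference of double-mutant effects.

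Over all genes, the count called for the MEP double mutant against WT was 11, with 3 to 40 over alternatives, and for MEP against HSC in WT 493, with 0 to 2200. The splicing, branch point and stability lists had a called gene in 22 of 636 alternatives outside MEP against HSC, at most 2; in MEP against HSC in WT, 8, 10 and 5 of 12 alternatives moved their counts by over 1.5 times. Scaling by TMM moved 26 of 56 group means of the members, where moved means a shift beyond the SD. HSC S211I without replicate 2 has no SD. Its means of the 7 genes therefore counted as moved at any shift and are among the 26. HSC depth limits every HSC value.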
